A study of Homo sapiens with 6 samples.

Results

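The RAB small GTPases were chosen by name, as every symbol made of RAB, a number and at most 1 further letter, which gave 57 of the 15832 genes in the deposited table. Values were available for all 57 in 6 RNA-seq libraries of AsPC-1, an established human pancreatic cancer cell line. There were 3 libraries from cells transfected with a control siRNA (siControl) and 3 from cells transfected with an siRNA against VCPIP1 (siVCPIP1), all taken at 48 h. VCPIP1 is a deubiquitinase that works with the ATPase p97/VCP in Golgi membrane fusion, and the series title ties it to Hippo/YAP signalling. No genotype or further agent is named for either group. Nothing in the labels says that libraries came from separate cultures, so p-values speak only of library-to-library spread, possibly technical. Each library is bulk RNA, in which fewer cells of a type and less RNA per cell cannot be told apart.

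RAB proteins are molecular switches on membranes. Bound to GTP, each marks a compartment and recruits effectors such as tethers, motors and sorting complexes, and bound to GDP it is drawn off the membrane by GDP dissociation inhibitors. Guanine nucleotide exchange factors (GEFs) turn a RAB on, TBC-domain GTPase activating proteins (GAPs) turn it off, and a geranylgeranyl transferase adds the lipid that lets it sit in a membrane. In secretory epithelial cells, such as those of the pancreatic duct, RABs direct traffic from the ER through the Golgi, out to the surface, and back through endosomes to lysosomes. Many exist as close paralogs named A, B and C.

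The 2 groups differed across the whole table. The values are TPM, a length-scaled share of the transcripts in a library, so levels of different genes can be compared, but a change is a change in share. The median TPM over all genes was 6.18 to 7.44 in siControl and 1.24 to 2.26 in siVCPIP1, with siVCPIP1 replicate 3 the highest of its group. VCPIP1 itself lay at 2.24 to 3.06 TPM in siControl and 0.11 to 0.27 TPM in siVCPIP1. All 9 ductal and epithelial markers were present above 1 TPM on average, with a sum of 13900 to 16000 TPM in siControl and 20900 to 23700 in siVCPIP1. Of the fibroblast markers, 6 of 7 were in the table and LUM alone passed 1 TPM; their sum was 45.3 to 69.0 TPM in siControl and 1.5 to 4.51 TPM in siVCPIP1. Of the leukocyte markers, 4 of 6 were in the table, CD68 and LYZ passed 1 TPM, and the sum was 145 to 150 TPM in siControl and 122 to 159 TPM in siVCPIP1. Endothelial and acinar markers (2 of 4 in the table for each) summed to at most 1.3 TPM in any library, no marker in the table was at 0 in all 6, and no islet marker was in the table. The part of these differences in the RAB results was not tested.

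Most RAB genes were lower in siVCPIP1, and a few were higher. Of the 57 members, 45 averaged 1 TPM or more across all libraries and were tested. Of these 45, 34 fell (75.6%) and 4 rose (8.89%: RAB1B, RAB3A, RAB4B and RAB24), and 7 were not called (limma, adjusted p under 0.05 over all 10966 genes tested). Over all genes tested, 66.0% fell and 15.0% rose, so the share of RABs that fell was near that of the whole table. The groups did not overlap, with siVCPIP1 lower, in 35 RABs (77.8%), against 67.9% of all genes. They did not overlap with siVCPIP1 higher in 5 RABs (11.1%), against 18.2% of all genes. The median log2 fold change was -1.50 for the 45 RABs and -1.12 for all genes, on the log2(TPM + 1) scale used for every fold change here, with single RABs from -4.22 to 0.83. In 8 of the tested members the siVCPIP1 mean was under 1 TPM, so they passed the filter through siControl and could only be lower. They were RAB8B, RAB9A, RAB12, RAB15, RAB21, RAB22A, RAB27B and RAB33B. Counts and medians, here and by role below, only describe members that passed the filter. Summed over all 57 members, RAB transcripts made up 2165 ± 98.4 TPM in siControl and 1366 ± 162 TPM in siVCPIP1 (SD, n = 3).

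**Figure D1:**
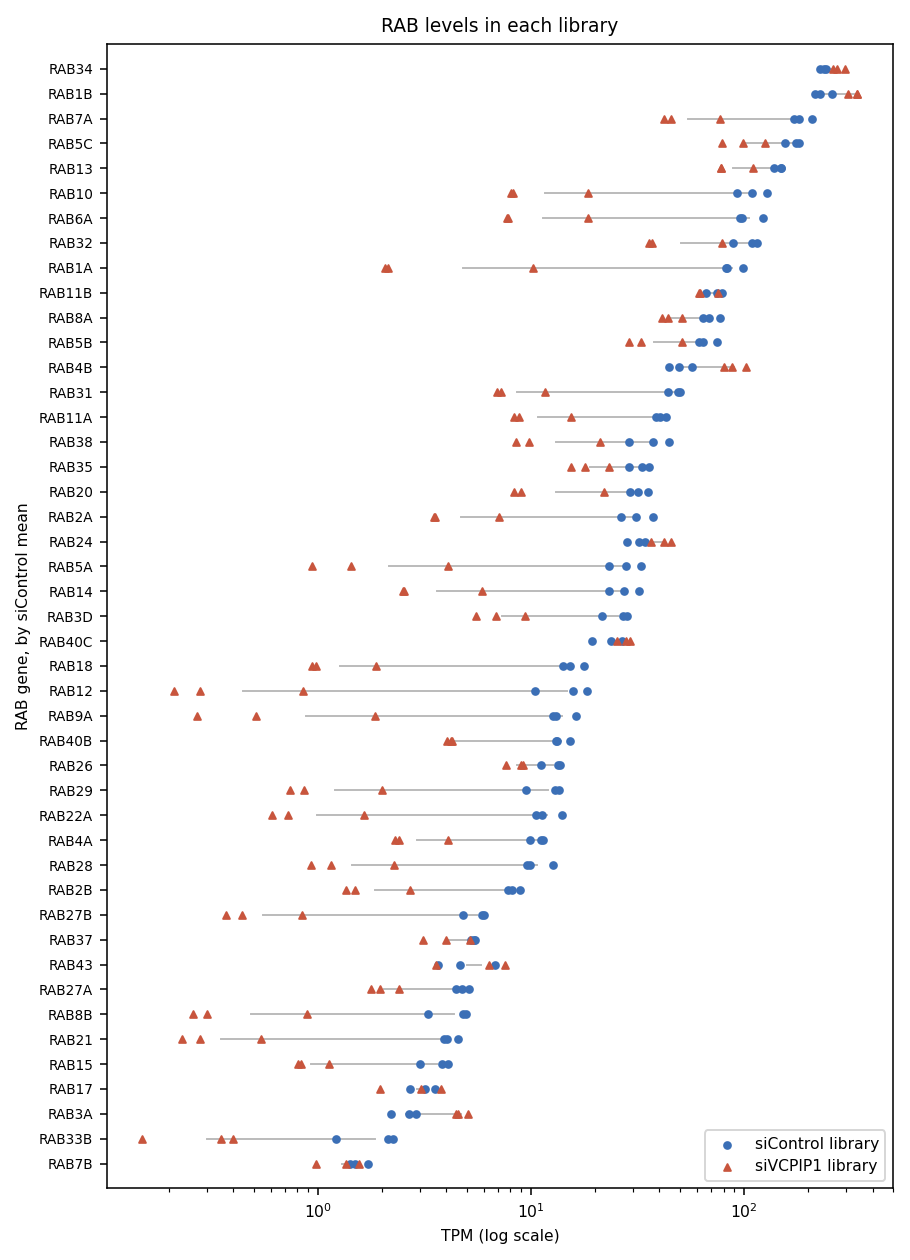
TPM of the 45 tested RAB genes in each library (log axis), ordered by siControl mean, with circles for the 3 siControl and triangles for the 3 siVCPIP1 libraries and a grey line between the group means. Most genes have their triangles to the left of their circles, RAB12 by the widest gap (3.02% of its siControl mean kept), while RAB1B and RAB4B have them to the right.

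The direction of many single RABs depended on how libraries were scaled. With median-of-ratios scaling, 24 of the 45 RABs were lower and 17 higher, where 45.1% and 40.3% of all genes were. The median of all genes moved from -1.12 to -0.14. Quantile normalization gave 22 of the 45 lower and 13 higher, beside 40.6% and 41.1% of all genes. All 7 RABs not called on the deposited values (RAB7B, RAB11B, RAB17, RAB34, RAB37, RAB40C and RAB43) were called higher under both scalings. Both methods align the centres of the libraries, so an even balance over all genes follows from them. A GC-corrected fit had each library's trend on transcript GC content and length removed. It gave 22 of the 45 RABs lower and 11 higher, beside 31.8% and 37.2% of 10708 genes. That fit centres each library too, and its median over all genes was 0.06. A sign that turned in it therefore also reflects removal of the table-wide shift. Across all of these settings, 13 RABs were lower each time: RAB1A, RAB2A, RAB3D, RAB5A, RAB6A, RAB9A, RAB10, RAB12, RAB14, RAB18, RAB22A, RAB29 and RAB31. Among them, RAB9A, RAB12 and RAB22A had siVCPIP1 means of 0.88, 0.45 and 0.99 TPM. They passed the filter through siControl and could only be lower on the deposited values. RAB1B, RAB3A and RAB4B were higher each time. How many of all genes were called alike in every setting was not counted, so neither number can be set against the whole table. With a pseudocount of 0.1 TPM in the GC-corrected fit, RAB2A turned higher (0.33, adjusted p = 0.020 by limma), and RAB14 and RAB31 turned sign without a call (0.11 and 0.10). In 32 of the 34 RABs that fell, siVCPIP1 replicate 3 was the highest of the siVCPIP1 libraries and so the nearest to siControl. The share of all fallen genes was not counted, but its median TPM over all genes was also the highest of the group (2.26, against 1.26 and 1.24). Without that library 35 RABs were lower and 5 higher. The median was then -1.78 for the RABs and -1.28 for all genes, so the whole table moved down as well. The share of all genes called without it is not given here.

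**Figure D2:**
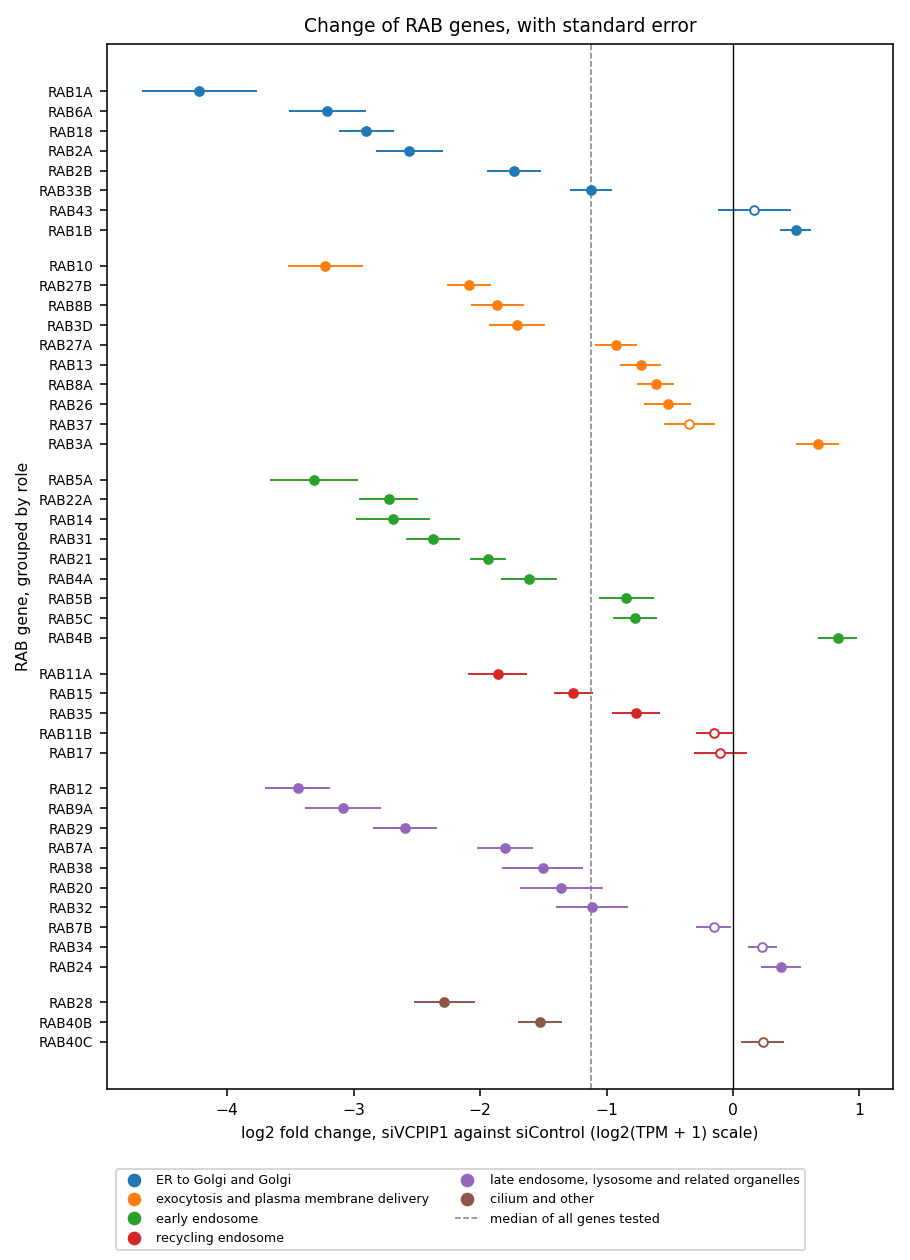
Log2 fold change of each tested RAB gene (x axis, siVCPIP1 against siControl, bars are standard errors from limma), grouped by role and colour. Filled points passed the test and open points did not. Each group spans a wide range, with the ER and Golgi group running from -4.22 for RAB1A to 0.50 for RAB1B, and the dashed line marks the median of all genes at -1.12.

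Among RABs of the ER and Golgi, 6 of the 8 tested members fell, RAB1B rose and RAB43 was not called, with a median of -2.15. RAB1A, which drives vesicles from the ER into the Golgi, fell furthest of all members on the log2(TPM + 1) scale, though RAB12 kept a smaller share of its siControl TPM (3.02% against 5.46%). It was measured at 82.10, 98.32 and 83.44 TPM in siControl and at 2.06, 2.14 and 10.21 TPM in siVCPIP1. Replicate 3 lay well above the other siVCPIP1 libraries, and all 3 lay far below siControl. The group means were 87.95 ± 9.0 and 4.80 ± 4.68 TPM (SD, n = 3), and the log2 fold change was -4.22 (SE 0.45, adjusted p = 3.9e-05 by limma). RAB1B, which acts at the same step, was measured at 257.42, 226.48 and 215.56 TPM in siControl and at 338.85, 339.91 and 308.00 TPM in siVCPIP1. Every siVCPIP1 library was above every siControl library, with means of 233.2 ± 21.7 and 328.9 ± 18.1 TPM (SD, n = 3), and RAB1B rose (log2 fold change 0.50, SE 0.12, adjusted p = 0.0045 by limma).

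RAB6A, which acts in transport within and out of the Golgi, stood at 97.27, 122.48 and 95.56 TPM in siControl and 7.67, 7.80 and 18.47 TPM in siVCPIP1, a fall of 3.21 on the log2 scale (SE 0.31, adjusted p = 2.5e-05 by limma). RAB6D, a near-identical intronless copy, was listed at 0.14 TPM or less in every library, and reads shared between such copies may have been split in the authors' counting. RAB2A, needed for Golgi structure and traffic, stood at 31.16, 37.40 and 26.48 TPM and then 3.52, 3.55 and 7.06 TPM, a change of -2.56 (SE 0.27, adjusted p = 3.5e-05 by limma). RAB2B was lower to start with, at 8.17, 8.91 and 7.77 TPM, and lay at 1.50, 1.35 and 2.70 TPM in siVCPIP1 (-1.73, SE 0.22, adjusted p = 8.8e-05 by limma). Its sign turned in the GC-corrected fit (0.49, adjusted p = 0.0025 by limma). RAB18, a RAB of the ER and lipid droplets, fell by 2.90, from 15.7 ± 1.83 to 1.27 ± 0.53 TPM. RAB33B, a Golgi and autophagy RAB, went from 1.86 ± 0.57 to 0.30 ± 0.13 TPM, and it too turned in the GC-corrected fit (1.12, adjusted p = 0.00036 by limma). RAB43, at 5.01 ± 1.57 and 5.84 ± 2.05 TPM, overlapped between the groups.

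Of the 10 tested RABs that deliver vesicles to the plasma membrane, 8 fell and RAB3A rose, with a median of -0.83. RAB10, which carries cargo to the basolateral surface and the GLUT4 transporter to the membrane, was measured at 109.15, 128.39 and 92.35 TPM in siControl and 8.04, 8.22 and 18.52 TPM in siVCPIP1. The groups were far apart, and RAB10 fell by 3.23 (SE 0.30, adjusted p = 2.3e-05 by limma). RAB13, found at tight junctions, lost less: its levels were 137.50, 148.50 and 148.84 TPM in siControl and 77.52, 77.48 and 109.49 TPM in siVCPIP1 (-0.73, SE 0.16, adjusted p = 0.0027 by limma). This change was 0.49 under median-of-ratios scaling (adjusted p = 0.0087 by limma) and 0.05 in the GC-corrected fit (adjusted p = 0.61 by limma).

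RAB8A and RAB8B both act in exocytosis and the building of the primary cilium. RAB8A stood at 64.25, 68.47 and 77.00 TPM and then at 44.01, 41.28 and 51.06 TPM, a change of -0.61 (SE 0.15, adjusted p = 0.0042 by limma) that became 0.60 under median-of-ratios scaling. RAB8B was the minor form, at 4.81, 4.97 and 3.30 TPM in siControl and 0.30, 0.26 and 0.89 TPM in siVCPIP1 (-1.86, SE 0.21, adjusted p = 4.7e-05 by limma), and it turned to 0.38 in the GC-corrected fit (adjusted p = 0.010 by limma). The secretory granule RABs moved in opposite directions. RAB3D, a RAB of exocrine zymogen granules, stood at 21.61, 27.13 and 28.30 TPM and then 5.53, 6.87 and 9.41 TPM (-1.71, SE 0.22, adjusted p = 0.00011 by limma). RAB3A, best known from synaptic vesicles, rose from 2.66, 2.88 and 2.19 TPM to 5.07, 4.52 and 4.43 TPM (0.67, SE 0.17, adjusted p = 0.0054 by limma). RAB27A and RAB27B dock secretory vesicles and exosome-releasing endosomes at the membrane. RAB27A went from 4.46, 5.11 and 4.76 TPM to 1.77, 1.96 and 2.40 TPM, and RAB27B from 5.99, 5.90 and 4.77 TPM to 0.44, 0.37 and 0.84 TPM. Their log2 fold changes were -0.93 and -2.09 (adjusted p = 0.00076 and 2.0e-05 by limma). RAB27A was higher after quantile normalization (0.66, adjusted p = 0.0016 by limma) and in the GC-corrected fit (1.41, adjusted p = 0.00011 by limma). RAB26 fell by 0.52 (adjusted p = 0.027 by limma), a call lost without siControl replicate 1 or 2 or siVCPIP1 replicate 1 or 2 (adjusted p = 0.10, 0.11, 0.060 and 0.097 by limma). It was called higher under median-of-ratios scaling (0.61, adjusted p = 0.010 by limma) and quantile normalization (0.91, adjusted p = 0.00053 by limma). RAB37 was not called (-0.35, adjusted p = 0.14 by limma).

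RABs of the early endosome fell in 8 of 9 cases, with a median of -1.94, and RAB4B rose. Among those that fell, RAB21 and RAB22A had siVCPIP1 means of 0.35 and 0.99 TPM. Both passed the filter through siControl and could only be lower, and the median is the value of RAB21 itself. RAB5A, the master RAB of early endosome fusion, stood at 27.82, 32.70 and 23.26 TPM in siControl and 0.94, 1.43 and 4.09 TPM in siVCPIP1. The groups lay far apart, with means of 27.9 ± 4.72 and 2.15 ± 1.70 TPM (SD, n = 3; -3.31, SE 0.35, adjusted p = 3.6e-05 by limma). The other forms fell less. RAB5B went from 61.28, 63.92 and 74.14 TPM to 32.87, 28.67 and 51.33 TPM (-0.84, SE 0.22, adjusted p = 0.0062 by limma). RAB5C, the most abundant of the 3 forms, went from 174.54, 180.59 and 155.77 TPM to 98.33, 78.98 and 124.85 TPM (-0.77, SE 0.18, adjusted p = 0.0031 by limma). No siVCPIP1 library reached the lowest siControl library in either. Median-of-ratios scaling made both higher (0.36 and 0.45), as the GC-corrected fit did for RAB5B (0.86) but not for RAB5C (-0.44).

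RAB4A and RAB4B return receptors from early endosomes to the surface by a fast route. RAB4A fell from 9.90, 11.32 and 11.16 TPM to 2.41, 2.29 and 4.06 TPM (-1.62, SE 0.22, adjusted p = 0.00015 by limma), a call that quantile normalization ended (0.00, adjusted p = 0.98 by limma) and the GC-corrected fit turned (0.76, adjusted p = 0.00071 by limma). RAB4B was higher, at 56.88, 49.35 and 44.19 TPM in siControl and 101.62, 87.47 and 80.32 TPM in siVCPIP1. The groups did not overlap, and the rise of 0.83 was the largest of any RAB (SE 0.16, adjusted p = 0.001 by limma). RAB14, RAB21, RAB22A and RAB31, which sort cargo between endosomes, the Golgi and the surface, fell too (-2.69, -1.94, -2.72 and -2.37), and RAB21 was not called in the GC-corrected fit (-0.21, adjusted p = 0.085 by limma).

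Of 5 recycling RABs, 3 fell, 0 rose and RAB11B and RAB17 were not called, with a median of -0.77. RAB11A, which runs the slow recycling endosome, stood at 38.68, 42.78 and 40.35 TPM in siControl and 8.33, 8.82 and 15.34 TPM in siVCPIP1 (-1.86, SE 0.23, adjusted p = 8.5e-05 by limma). RAB11B, its close relative in the same pathway, stood at 74.87, 78.76 and 66.20 TPM and then 62.09, 61.08 and 75.27 TPM. These groups overlapped, and the change was -0.15 (SE 0.15, adjusted p = 0.37 by limma). In the GC-corrected fit the order turned round, with RAB11A at 0.37 (adjusted p = 0.030 by limma) and RAB11B at -0.61 (adjusted p = 0.0030 by limma). RAB15 fell by 1.26 and RAB35, an endosome and cytokinesis RAB, by 0.77, the second of which became 0.41 under median-of-ratios scaling (adjusted p = 0.023 by limma). RAB17, a RAB of polarized epithelia, was measured at 3.13 ± 0.42 and 2.92 ± 0.92 TPM (SD, n = 3).

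RABs of late endosomes, lysosomes and related organelles fell in 7 of 10 cases and RAB24 rose, with a median of -1.43. RAB7A, needed for endosomes and autophagosomes to fuse with lysosomes, was measured at 171.81, 206.91 and 181.51 TPM in siControl and 41.87, 45.25 and 76.80 TPM in siVCPIP1. The gap between the groups was wide, and the change was -1.80 (SE 0.22, adjusted p = 8.6e-05 by limma), or -0.05 in the GC-corrected fit (adjusted p = 0.68 by limma). RAB7B, at 1.50, 1.41 and 1.71 TPM and then 1.35, 0.98 and 1.55 TPM, overlapped and was not called (-0.15, adjusted p = 0.34 by limma). It was called higher under median-of-ratios scaling (0.56), quantile normalization (1.07) and the GC-corrected fit (0.83), with adjusted p = 0.0025, 0.00011 and 0.00066 by limma. RAB12, which acts in lysosomal delivery of receptors, kept the smallest share of its siControl level of all tested members, 3.02%. It went from 15.73, 18.27 and 10.43 TPM to 0.28, 0.21 and 0.85 TPM (-3.44, SE 0.26, adjusted p = 2.0e-05 by limma). RAB9A, which returns mannose 6-phosphate receptors from late endosomes to the Golgi, fell by 3.09, and RAB29, a partner of the kinase LRRK2, by 2.59.

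RAB32 and RAB38, which build lysosome-related organelles, fell (-1.11 and -1.50). RAB38 was not called under median-of-ratios scaling (-0.34, adjusted p = 0.17 by limma), quantile normalization (-0.45, adjusted p = 0.086) or the GC-corrected fit, where its sign turned (0.27, adjusted p = 0.17). RAB32 stood at 88.30, 108.35 and 114.73 TPM in siControl and 35.90, 37.12 and 78.37 TPM in siVCPIP1, where replicate 3 lay closer to siControl than to the other libraries of its group. Without that library the RAB32 change was -1.47 (limma), and with median-of-ratios scaling it was 0.10 (adjusted p = 0.63 by limma). RAB20, a phagosome RAB, fell by 1.36 (adjusted p = 0.0041 by limma), a change of like size in the GC-corrected fit (-1.43, adjusted p = 0.0022 by limma) but not called under either scaling (-0.20 and -0.25). RAB34, a RAB of lysosome positioning and cilia, was one of the most abundant members in siControl, at 235.68, 226.30 and 242.64 TPM, a mean of 234.9 TPM beside 233.2 TPM for RAB1B. In siVCPIP1 it stood at 271.80, 260.33 and 296.19 TPM, which did not overlap with siControl but was not called (0.23, adjusted p = 0.089 by limma). RAB24, an atypical RAB linked to autophagy, rose from 34.22, 28.15 and 32.07 TPM to 42.02, 36.51 and 45.26 TPM (0.38, SE 0.16, adjusted p = 0.049 by limma). That call was lost without any one of 4 libraries, namely siControl replicate 1, 2 or 3 or siVCPIP1 replicate 1 (adjusted p = 0.057, 0.19, 0.087 and 0.15 by limma), and its sign turned in the GC-corrected fit (-0.07, adjusted p = 0.61).

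The remaining tested members were RAB28 and the RAB40 forms. RAB28, a ciliary RAB, fell by 2.28, from 10.7 ± 1.75 to 1.45 ± 0.72 TPM (SD, n = 3), and lay at 0.02 in the GC-corrected fit (adjusted p = 0.85 by limma). RAB40B and RAB40C carry a SOCS box that joins them to cullin ubiquitin ligases. RAB40B went from 13.29, 15.15 and 13.13 TPM to 4.04, 4.24 and 4.19 TPM (-1.52, SE 0.18, adjusted p = 5.6e-05 by limma). RAB40C, at 26.73, 23.71 and 19.40 TPM and then 27.89, 25.23 and 29.07 TPM, overlapped between the groups (0.23, adjusted p = 0.23 by limma). The other 12 members had a mean of 0.022 to 0.782 TPM and were not tested: RAB3B, RAB6B, RAB6D, RAB19, RAB23, RAB30, RAB33A, RAB36, RAB40A, RAB41, RAB42 and RAB44. At such levels no direction is drawn.

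Forms that share a number were compared as a ratio within each library, which a single scaling factor per library alters only through the pseudocount of 1 TPM. There were 12 pairs with both forms tested, and in 11 of them the ratio did not overlap between the groups (two-sided exact permutation p = 0.1 in each, the smallest that 3 libraries against 3 allow, so no pair could pass 0.05). Of all genes taken singly, 67.9% did not overlap with siVCPIP1 lower and 18.2% with siVCPIP1 higher. Pairs of other genes were not counted, so 11 of 12 is not read as particular to RABs. RAB1A made up 24.2%, 30.3% and 27.9% of the TPM of RAB1A and RAB1B together in siControl, and 0.604%, 0.626% and 3.21% in siVCPIP1. The log2 ratio moved by -4.72 (SE 0.68), the largest shift of any pair. For RAB5A against RAB5C the shift was -2.54 (SE 0.32), with RAB5A at 13.7%, 15.3% and 13% of the pair and then 0.947%, 1.78% and 3.17%. RAB5A against RAB5B shifted by -2.47 (SE 0.31). RAB5B against RAB5C did not: the shift was -0.07 (SE 0.17, exact permutation p = 0.7).

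RAB4A fell from 14.8%, 18.7% and 20.2% of the RAB4 pair to 2.32%, 2.55% and 4.81%, a shift of -2.44 (SE 0.32). RAB11A fell from 34.1%, 35.2% and 37.9% of the RAB11 pair to 11.8%, 12.6% and 16.9%, a shift of -1.71 (SE 0.18). In other pairs the first form gained. RAB3A rose from 11.0%, 9.6% and 7.18% of the pair with RAB3D to 47.8%, 39.7% and 32.0% (2.38, SE 0.29), and RAB27A from 42.7%, 46.4% and 49.9% of the pair with RAB27B to 80.1%, 84.1% and 74.1% (1.16, SE 0.12). RAB8A against RAB8B shifted by 1.25 (SE 0.25). RAB8B and RAB27B had siVCPIP1 means of 0.48 and 0.55 TPM and passed the filter through siControl, and the pseudocount of 1 TPM narrows both shifts. Of their siControl means, RAB8A kept 65.0% and RAB8B 11.1%, and RAB27A kept 42.8% and RAB27B 9.90%. RAB40B against RAB40C moved by -1.76 (SE 0.15), RAB7A against RAB7B by -1.65 (SE 0.24) and RAB2A against RAB2B by -0.83 (SE 0.12).

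**Figure D3:**
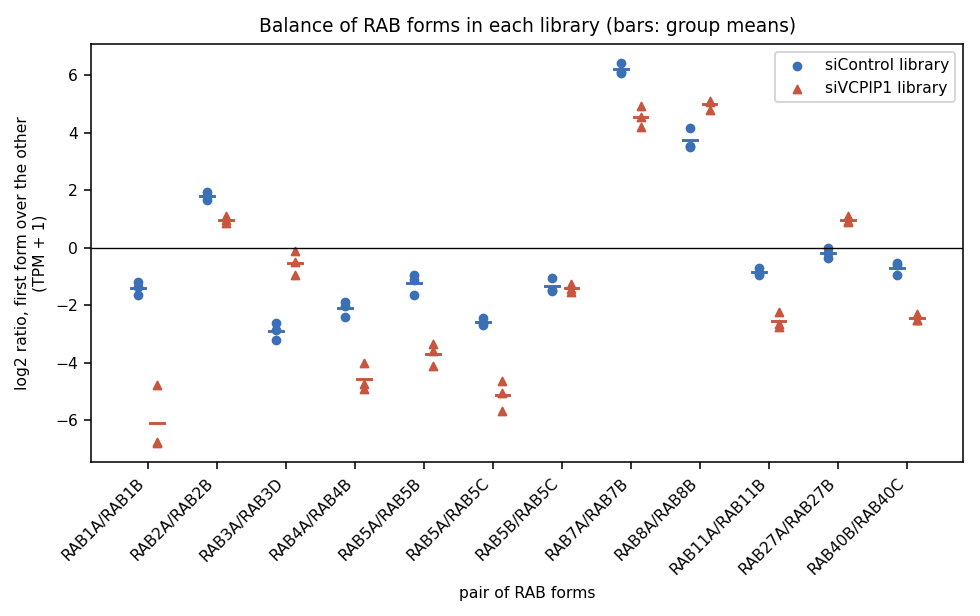
Log2 ratio of the first-named over the other form in each library (y axis, TPM + 1), for the 12 pairs of RAB forms that share a number, with circles for siControl, triangles for siVCPIP1 and bars for the group means. Circles and triangles are apart in every pair except RAB5B/RAB5C, and the widest gap is in RAB1A/RAB1B.

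Several of these pairs encode much the same protein with different codons. Coding sequences came from 1 transcript per gene of GENCODE 29 (GRCh38), aligned by the residues they encode. RAB1A (chromosome 2, 65070696 to 65130331, minus strand) and RAB1B (chromosome 11, 66268533 to 66277492, plus strand) had the same residue at 188 of 201 aligned codons (93.5%), and at 114 of those 188 the codon differed. At these shared residues the third base was G or C in 40.4% of RAB1A codons and 75.5% of RAB1B codons. RAB11A (chromosome 15, 65726054 to 65891991, plus strand) and RAB11B (chromosome 19, 8389981 to 8404434, plus strand) shared 199 of 216 residues, with G or C at the third base in 34.7% and 88.9%. RAB4A and RAB4B shared 186 of 213, with 40.9% and 76.3%, and RAB5A and RAB5C 188 of 215, with 29.3% and 69.1%. For RAB8A and RAB8B, where the B form fell further, the order was turned round, 69.0% and 48.5%.

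The coding sequence of the P-loop, the 8 residues that hold the phosphates of the nucleotide in these RABs, is printed for 5 pairs to show these codon choices. The motif as searched for was not found in RAB40B or RAB40C. Each is given on the coding strand, 5′ to 3′, and capitals mark a G or C at the third base of a codon.
RAB1A: ggCgaCtcaggGgttggaaaGtct
RAB1B: ggCgaCtcaggCgtGggCaaGtca
RAB4A: ggaaatgcaggaactggCaaatct
RAB4B: ggCagtgcaggaactggCaaatca
RAB5A: ggagaGtcCgctgttggCaaatca
RAB5C: ggGgaGtctgcGgtaggCaaatcC
RAB8A: ggGgaCtcGggGgtGggGaaGacC
RAB8B: ggCgaCtcGggGgtaggCaaGacC
RAB11A: ggagattctggtgttggaaaGagt
RAB11B: ggGgaCtcaggCgtGggCaaGagC
In this motif 1 of 8 codons ended in G or C in RAB11A and 7 of 8 in RAB11B. RAB1A had 4 and RAB1B 6, RAB5A 3 and RAB5C 5, RAB4A 1 and RAB4B 2, and RAB8A 8 and RAB8B 7. Within the motif, other pairs did not all follow this order. RAB27A, whose share rose, had 4 such codons and RAB27B 5, and RAB5A, whose share fell, had 3 and RAB5B 2. Over shared residues the order held in the RAB27 pair, with 48.1% in RAB27A and 43.0% in RAB27B. It also held, with near values, in RAB7A and RAB7B (63.3% and 65.3%) and in RAB3A and RAB3D (81.8% and 78.8%).

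The change in RAB genes ran with the GC content of their transcripts, as it did across all genes. In all 12 pairs the ratio moved against the form with the lower GC content, in RAB5B/RAB5C by no more than the spread between libraries. RAB1A and RAB1B transcripts had 38.3% and 61.1% GC, RAB11A and RAB11B 37.2% and 63.5%, and RAB8A and RAB8B 54.1% and 36.2%. All 19 tested RABs with under 45% GC fell, with a median of -2.37, where 97.4% of the 3477 genes in that range fell and their median was -2.13. Of these 19 RABs, 6 had a siVCPIP1 mean under 1 TPM and could only be lower, so the count and median only describe the members that passed the filter. Of 11 RABs from 45% to under 55% GC, 10 fell and 0 rose (78.0% and 5.17% of 3424 genes). Of 15 RABs at 55% or more, 5 fell and 4 rose, with a median of -0.10 (26.9% and 37.1% of 3807 genes, median 0.14). RAB12 in the middle range and RAB15 in the highest had siVCPIP1 means of 0.45 and 0.92 TPM and could likewise only be lower. Across the 45 RABs, which share libraries and are no replicates, log2 fold change correlated with transcript GC at r = 0.79 (Spearman's rho 0.78). The correlation was 0.80 with 3' UTR GC, 0.75 with GC at the third codon position and -0.40 with log2 transcript length. It was 0.00 with the GC content of the promoter window around the gene start (RefSeq, GRCh38.p14), which was found for 36 of the 45, and -0.04 with log2 siControl level.

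**Figure D4:**
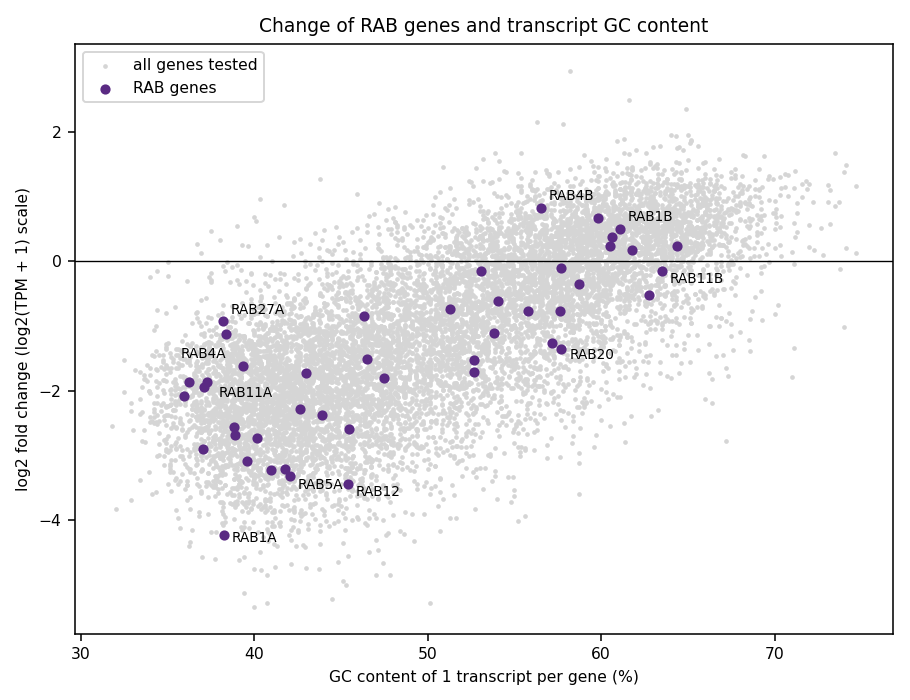
Log2 fold change (y axis) against GC content of 1 transcript per gene (x axis) for all genes tested (grey) and the 45 RAB genes (purple), with some RABs named. The RABs lie within the grey cloud and rise with it from left to right (r = 0.79 over the RABs).

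Some of these differences kept their sign and call with GC and length trends removed. RAB1A was lower (-1.79, adjusted p = 0.00077 by limma), as were RAB12 (-1.40), RAB20 (-1.43), RAB5A (-0.98), RAB6A (-0.97), RAB10 (-0.96) and RAB26 (-0.97). RAB4B was higher (0.74, adjusted p = 0.0018 by limma), with RAB3A (0.38) and RAB1B (0.27). The shift kept its sign in 8 of the 12 pairs, at -2.06 for RAB1A against RAB1B, -1.84 for RAB5A against RAB5B, 1.40 for RAB27A against RAB27B and 0.96 for RAB3A against RAB3D. It was lost or turned in the other 4, at 0.02 for RAB4A against RAB4B, -0.17 for RAB8A against RAB8B, 0.98 for RAB11A against RAB11B and 1.30 for RAB5B against RAB5C. The fit also centres each library, so these values do not isolate GC content and length. Whether GC content had a part in the deposited differences was not tested beyond these values.

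Of 157 tested genes of the RAB cycle outside the family, on lists made from general knowledge of the pathway, 67.5% fell and 13.4% rose, near the 66.0% and 15.0% of all genes. Some of them passed the filter through siControl alone and could only be lower. Among these were CHM, TRAPPC8 and USO1, with siVCPIP1 means of 0.46, 0.21 and 0.86 TPM. The counts and medians of the lists only describe genes that passed the filter. In the membrane cycle list, 3 of 7 tested genes fell, 2 rose, and the median was -0.38. The subunits of the geranylgeranyl transferase that lipidates RABs moved apart. RABGGTB, the catalytic beta subunit, went from 69.17, 89.85 and 80.95 TPM to 2.64, 2.08 and 13.09 TPM (-3.90, SE 0.50, adjusted p = 0.00011 by limma). RABGGTA, the alpha subunit, went from 19.75, 16.50 and 17.84 TPM to 33.33, 31.71 and 31.31 TPM (0.80, SE 0.15, adjusted p = 0.0011 by limma). Both kept direction and call in the GC-corrected fit (-1.42 and 0.66). GDI2, a GDP dissociation inhibitor, fell from 273.3 ± 24.7 to 113.5 ± 22.3 TPM (SD, n = 3; -1.27, adjusted p = 0.00012 by limma). It turned to 0.89 in the GC-corrected fit (adjusted p = 0.0045 by limma). The escort protein CHM, which presents RABs to the transferase, fell by 1.70 and turned to 0.50 under that correction. RABAC1, a RAB-binding Golgi membrane protein, rose from 122.8 ± 15.9 to 239.7 ± 37.7 TPM (0.96, adjusted p = 0.00051 by limma), a call lost under it (0.12, adjusted p = 0.25 by limma).

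Of 47 tested genes on the GEF list, 31 fell and 8 rose, with a median of -1.32. RIN2, a RAB5 GEF, fell by 2.86, ANKRD27, a RAB21 GEF and RAB32/RAB38 effector, by 2.80, and TRAPPC8, a subunit of the TRAPP complex that activates RAB1, by 2.59. TRAPPC5 and TRAPPC6A, small TRAPP core subunits, rose by 1.12 and 0.94, and DENND6B by 1.06. TRAPPC6A was not called in the GC-corrected fit (0.10, adjusted p = 0.45 by limma). Of 33 TBC-domain GAPs, 23 fell and TBC1D17 and EVI5L rose (1.06 and 0.73), with a median of -0.92. TBC1D14, TBC1D4 and GRTP1 fell most (-2.77, -2.58 and -2.70). GRTP1, at 54.1% GC, lay at -2.31 in the GC-corrected fit (adjusted p = 7.7e-05 by limma).

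Of 63 tested effectors and partners, 44 fell and 8 rose, with a median of -1.02. USO1, the p115 tether that RAB1 recruits, fell from 20.3 ± 6.56 to 0.863 ± 0.660 TPM (SD, n = 3; -3.52, adjusted p = 2.2e-05 by limma). The retromer subunits VPS26A and VPS29, which RAB7 brings to endosomes, fell (-3.08 and -2.97). RILP, which links RAB7 to dynein, rose by 0.82 and EHBP1L1, a RAB8 effector, by 0.80. ZFYVE19, which was on the list but whose link to a RAB was not checked, rose by 0.74. Of 7 RAB-like and related GTPases, 5 fell, among them RAN (-2.39), RABL2B (-1.91) and RABL3 (-1.86), and RABL6 rose (0.44). In the GC-corrected fit RABL3 turned (0.43), and RAN (-0.14, adjusted p = 0.53 by limma) and RABL6 (0.20, adjusted p = 0.11 by limma) were not called. Over all lists, 38 of 156 genes were lower and 62 higher in the GC-corrected fit. Over all genes, 3406 of 10708 were lower and 3985 higher (31.8% and 37.2%).

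**Figure D5:**
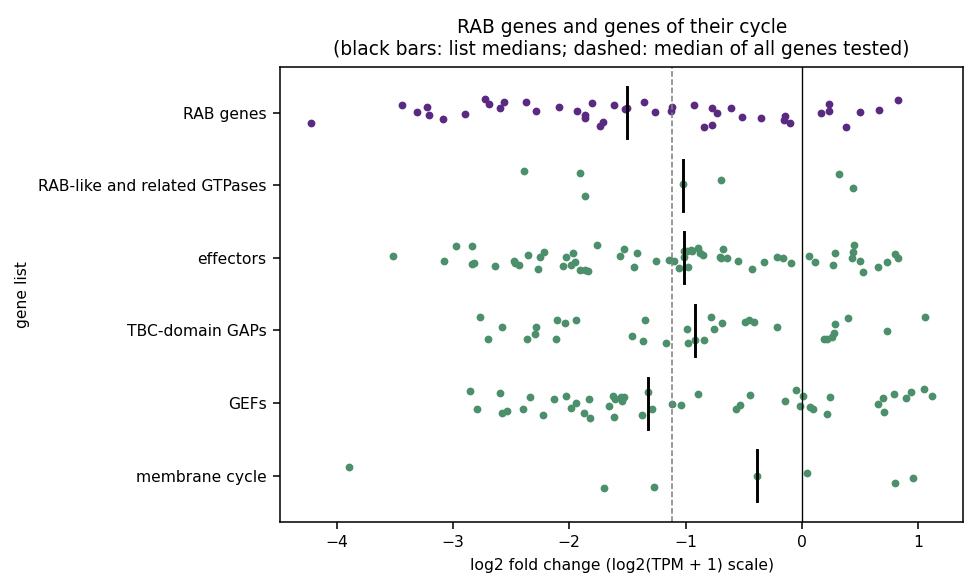
Log2 fold change (x axis) of each tested gene in the RAB family (purple) and in 5 lists of genes of the RAB cycle (green), with black bars for list medians and a dashed line for the median of all genes. The list medians run from -1.50 for the RABs to -0.38 for the membrane cycle list, where RABGGTB is the point furthest to the left.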

How the data were processed

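RNA from 6 AsPC-1 libraries was sequenced, per the labels' protocols. The authors deposited TPM per gene symbol, per the file headers, and the genome build named is GRCh38.p13, per the submitters' processing notes. Their aligner, counter, annotation, strand setting and filters: not given in the sources used here. Read depth cannot be recovered from TPM and is unknown, so no counting interval is given. Here log2(TPM + 1) was compared between groups for 10966 genes averaging 1 TPM or more, by limma 3.58.1 under R 4.3.3 (trended eBayes, two-sided, Benjamini-Hochberg over all genes, threshold 0.05). Ratios of RAB forms were compared by a two-sided exact permutation test. For each gene, 1 coding transcript of GENCODE 29 gave GC content and length (97.6% of genes tested, all 45 RABs), which may not be the isoform expressed; trends were removed with natural splines (5 and 3 degrees of freedom, and their product). Fits were tested on simulated data. Replicate numbers were taken not to pair the libraries.

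Members and lists were chosen with earlier results of these data known. Values in every library are given for RABs in tested pairs, the 10 highest in siControl and the 5 largest changes in each direction; from each pathway list, up to 3 called genes each way are named, and any others named were chosen after their values were seen. Alternatives were another pseudocount and filters, both scalings, GC and length correction, a replicate block, eBayes without a trend and each library left out.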

Additional observations from a re-analysis of the deposited data

How the results depend on the processing

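The depth of the libraries is unknown, and the annotation and isoforms behind the TPM values may differ from those used for GC content, which limits the corrected values most at low TPM. Lower and higher RABs numbered 24 and 17 under median-of-ratios scaling. Quantile normalization gave 22 and 13, and GC and length correction 22 and 11. They were 19 and 14 after that correction with a pseudocount of 0.1 TPM, an alternative chosen after seeing the data, and 21 and 10 with the correction and the replicate block. Of 157 pathway genes (156 with GC and length correction), 66 were lower and 59 higher, then 59 and 74, 38 and 62, 38 and 61, and 38 and 62 in the same order. All-gene shares were 45.1% and 40.3% under median-of-ratios scaling and 40.6% and 41.1% under quantile normalization. With GC and length correction they were 31.8% and 37.2%. A filter of 5 TPM gave 57 lower, but fewer genes pass it, so that count cannot be set beside the others. All-gene shares for the other settings of this section are not given. Leaving out 1 library gave 33 to 35 lower and 3 to 5 higher RABs. Same-numbered libraries had deviations from the group means correlating at 0.531, -0.267 and 0.164, so the numbers were taken not to pair them; the replicate block gave 33 lower and 4 higher RABs. Not every library correlated best with its own number.

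Signs turned in these cases, and the causes were not tested. After GC and length correction, with the same values with the replicate block: RAB2B 0.49, RAB4A 0.76, RAB5B 0.86, RAB7B 0.83, RAB8A 0.21, RAB8B 0.38, RAB11A 0.37, RAB13 0.05, RAB17 0.00, RAB24 -0.07, RAB27A 1.41, RAB27B 0.00, RAB28 0.02, RAB33B 1.12, RAB34 -0.04, RAB38 0.27, RAB40C -0.03, CHM 0.50, GDI2 0.89 and RABL3 0.43. With a pseudocount of 0.1 TPM as well: RAB2A 0.33, RAB2B 0.61, RAB4A 1.21, RAB5B 1.35, RAB7A 0.24, RAB7B 0.90, RAB8A 0.34, RAB8B 0.20, RAB11A 1.25, RAB13 0.14, RAB14 0.11, RAB17 0.00, RAB24 -0.09, RAB27A 1.97, RAB27B 0.02, RAB31 0.10, RAB33B 0.82, RAB34 -0.04, RAB38 0.46, RAB40C -0.03, CHM 0.39, GDI2 1.33, RABL3 0.66 and RAN 0.37. After median-of-ratios scaling: RAB5B 0.36, RAB5C 0.45, RAB7B 0.56, RAB8A 0.60, RAB11B 1.07, RAB13 0.49, RAB17 0.81, RAB26 0.61, RAB32 0.10, RAB35 0.41 and RAB37 0.66. After quantile normalization: RAB4A 0.00, RAB7B 1.07, RAB11B 0.32, RAB15 0.16, RAB17 1.34, RAB26 0.91, RAB27A 0.66, RAB35 0.21, RAB37 1.20 and RAB40B 0.02. Leaving out 1 library gave -0.26 to 0.09 for RAB17 (above 0 without siVCPIP1 replicate 2) and -0.02 to 0.44 for RAB43 (below 0 without siVCPIP1 replicate 1). Pair shifts turned for RAB4A/RAB4B (0.02 with GC and length correction, 0.46 with the smaller pseudocount as well), RAB5B/RAB5C (1.30, 1.73, 0.31 under quantile normalization, and -0.14 to 0.07 leaving out 1 library, above 0 without siControl replicate 3), RAB8A/RAB8B (-0.17 with the correction) and RAB11A/RAB11B (0.98 and 1.89).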
